A study of Homo sapiens with 28 samples.

Results

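The data described here are the 4 arrays of MOLM-13 cells, out of 28 arrays of 7 human AML cell lines, taken as the arrays whose titles name that line. The treated arrays, 2 of them, come from cells kept for 8 days in 1 µM Pinometostat, a small molecule that occupies the methyl donor pocket of DOT1L, and the 2 control arrays from cells in 0.01% DMSO for the same 8 days. MOLM-13 is a monocytic AML line with an MLL rearrangement (MLL-r), in its case the MLL-AF9 fusion, and it also carries an internal tandem duplication of FLT3. The other lines with an MLL rearrangement are MV4-11, NOMO-1 and THP-1, and those without one are HL-60, OCI-AML3 and U-937. No source says whether replicates 1 and 2 were grown apart, so the spread between these samples may be technical. Every p rests on that spread, pooled in large part over all genes. All values come from 1 established line, which limits how far they stand for MLL-r AML.

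DOT1L is the enzyme that methylates lysine K79 of histone H3 within transcribed genes. Several proteins fused to MLL in leukemia belong to the same complexes as DOT1L, and the fusions carry its activity to genes of early hematopoiesis such as MEIS1. Blocking DOT1L is known to lower those genes and to push MLL-r cells towards monocytes and macrophages. The comparison asks which genes differed between MOLM-13 cells with and without the drug, and whether that response differed from the response of the other lines.

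RNA level is given as log2 RMA signal per gene, normalized together over all arrays, for 17687 named genes. Array medians over all probe sets, control probe sets included, lay between 5.61 and 5.69. As a mark of background, the 95th percentile of 612 negative control probe sets lay between 4.10 and 4.34, and 4017 genes were not above it on any MOLM-13 array. All 13 measured markers of myeloid leukemia cells were above it on 3 or 4 arrays, with a mean log2 signal of 9.05 and 8.83 in treated and 8.67 and 8.59 in control cells. Of 66 measured markers of 8 other cell types, 21 were not above it on any array and 0 were called, and the list means spanned 3.80 to 5.63 in treated and 3.74 to 5.14 in control cells. The median of the array's GC-matched background probes was highest on the second treated array, at 3.50, against 2.86 on the first treated array and 2.93 and 3.21 on the control arrays. The part of this background in the results was not tested.

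In the fit of all MOLM-13 arrays, many more genes were called higher than lower after Pinometostat. This excess was reversed in an unpaired fit without the first treated array. That fit sets the second treated array against both control arrays, so a shift shared by same-numbered arrays enters the difference. With the replicate number in the fit of all MOLM-13 arrays the excess remained, at 155 rises and 23 falls. An excess of rises was not seen over all genes, of which 46.1% had a difference above 0. A gene was called when limma gave an unadjusted p under 0.05 and a difference, treated minus control, of at least 1 on the log2 scale. By this rule 152 genes rose (0.859% of 17687) and 15 fell (0.0848%). The called rises had a median of 1.30 log2 and reached 5.51, and 33 of them were at least 2 log2, whereas the largest fall was −1.38. After Benjamini-Hochberg adjustment over all genes, 7 genes were higher (0.0396%) and 0 lower at an adjusted p under 0.05, out of 310 at an unadjusted p under 0.05 (1.75%). When the replicate number was added to the fit as a block, because same-numbered arrays deviated together, 105 genes were higher (0.594%) and 1 lower (0.00565%) at an adjusted p under 0.05, out of 1625 at an unadjusted p under 0.05 (9.19%), and by the call rule 155 rose (0.876%) and 23 fell (0.13%). The genes past adjustment included 104 of the 152 called rises and 1 of the 15 called falls, CXCL10, and the adjusted p of this blocked fit is given below beside the first.

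The size of the response depended on the array, most of all for the falls. The excess of called rises over called falls turned into an excess of falls in the unpaired fit without the first treated array. The excess of rises remained with the replicate number as a block. Every fit with 1 array left out was unpaired, so a shift shared by same-numbered arrays enters its differences. In all 152 called rises both treated arrays lay above both control arrays, as did those of 12.1% of all genes. In 96 the treated array exceeded the control array of the same number by at least 1 log2 for both numbers. These 96 were all the genes that did so (0.543% of 17687). In all 15 called falls both treated arrays lay below both control arrays, as did those of 11.7% of all genes. The call rule uses the same values and favors genes with such ranges, so the ranges are no separate evidence for the calls. No gene fell by 1 log2 or more for both numbers: the median change of the called falls was −0.68 within replicate 1 and −1.55 within replicate 2. Without the first treated array the rule gave 349 rises and 694 falls, and without the second treated array 260 rises and 55 falls. Leaving out the first or the second control array gave 166 or 133 rises and 31 or 113 falls.

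**Figure D1:**
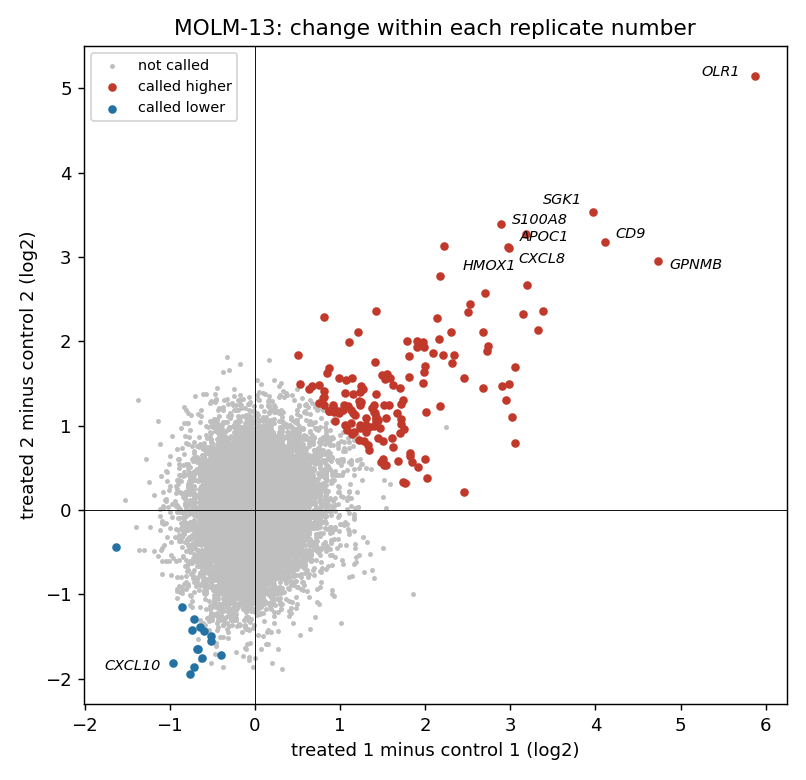
Each point is 1 of 17687 genes, with the change of the first treated array over the first control array on the x axis and that of the second treated array over the second control array on the y axis (both log2). Red points are the 152 genes called higher and blue points the 15 called lower, and the red points extend along the diagonal to OLR1 while the blue ones lie mostly below −1 on the y axis alone.

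The largest change was that of OLR1, which encodes LOX-1, a lectin-like scavenger receptor for oxidized lipoprotein. OLR1 stood at 9.85 and 8.98 log2 in treated cells, against 3.98 and 3.83 in control cells. Both control values lay under the background mark, so the rise is given as at least 38.7-fold, the treated mean against the control arrays set to their own background mark. The fitted difference was 5.51 ± 0.38 (SE, n = 2 against 2; adjusted p 0.00303, blocked 1.09e-07). GPNMB, a transmembrane glycoprotein of macrophages that load their lysosomes, had 9.54 and 8.68 in treated cells, against 4.80 and 5.73 in control cells. It rose by 3.84 ± 0.43 (adjusted p 0.0325, blocked 4.74e-05), and its 2 control arrays were further apart than its treated arrays.

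SGK1, a serum- and glucocorticoid-induced kinase, had 7.16 and 6.45 in treated cells, against 3.19 and 2.91 in control cells, both under the background mark. This is a rise of at least 6.35-fold (fitted difference 3.76 ± 0.36, adjusted p 0.0239, blocked 3.86e-06). CD9, a tetraspanin of the cell surface, had 8.63 and 7.54 in treated cells, against 4.52 and 4.36 in control cells (3.65 ± 0.41, adjusted p 0.0325, blocked 1.06e-05). For both genes the first treated array was the higher one, and no treated value came near a control value.

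APOC1, a small apolipoprotein, was among the tightest of the leading genes, with 8.54 and 8.50 in treated cells, against 5.54 and 5.39 in control cells (3.05 ± 0.32, adjusted p 0.0239, blocked 1.19e-05). CXCL8, the neutrophil chemokine interleukin-8, had 9.74 and 9.78 in treated cells, against 6.77 and 6.67 in control cells (3.04 ± 0.32, adjusted p 0.0239, blocked 1.19e-05). HMOX1, the heme-degrading enzyme heme oxygenase, had 7.98 and 7.99 in treated cells, against 4.79 and 5.32 in control cells (2.94 ± 0.34, adjusted p 0.0325, blocked 2.54e-05). In these 3 genes the treated arrays differed by far less than the distance to the control arrays.

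**Figure D2:**
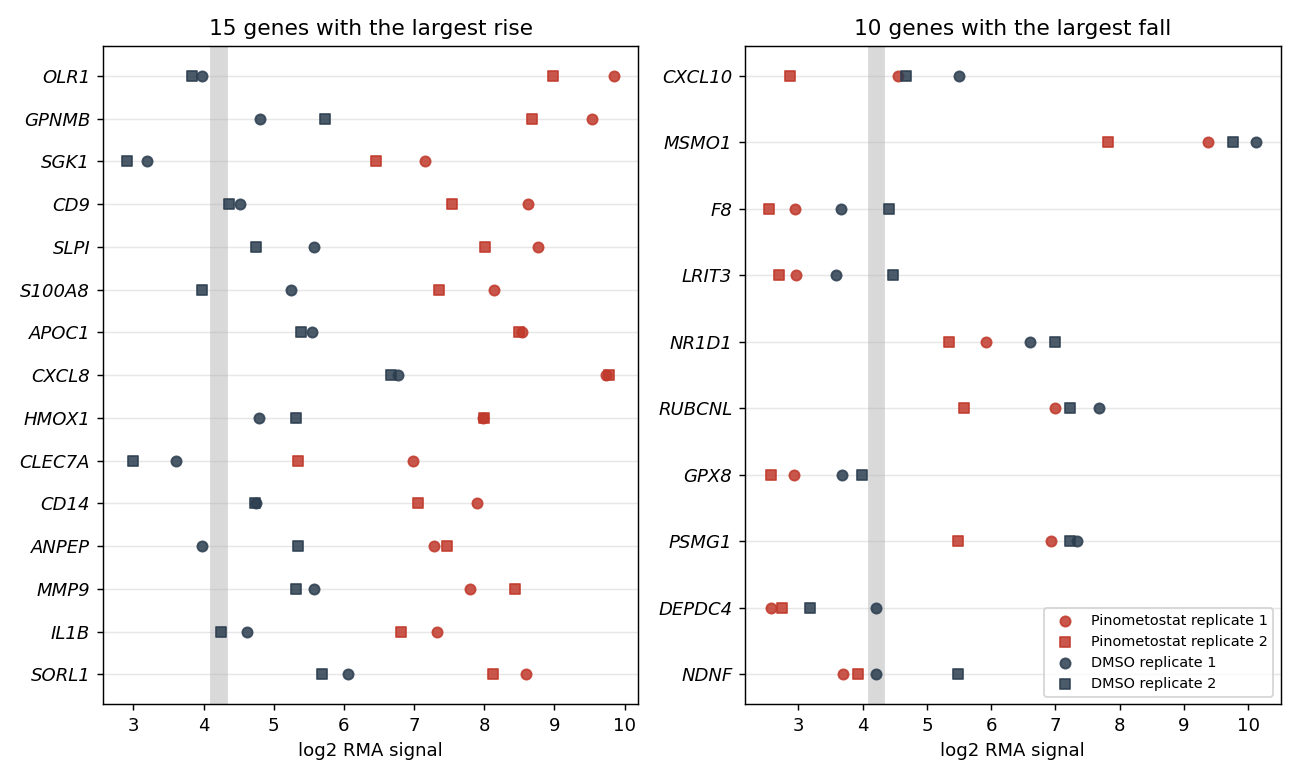
Log2 RMA signal of the 15 genes with the largest rise (left) and the 10 with the largest fall (right) among called genes, with 1 symbol per array (Pinometostat red, DMSO dark, circle replicate 1, square replicate 2). The grey band spans 4.10 to 4.34, the 95th percentile of negative control probe sets on the 4 arrays. The rises end to the right of it, and several of the falls lie within or left of it.

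Upstream sequence is shown for the genes above that have a window in the RefSeq promoter table (GRCh38.p14), and for APOE, the neighbor of APOC1, because these are the genes past adjustment in the 4-array fit and the called gene beside 1 of them. Each line gives the 150 bases before the annotated start of 1 transcript, read along the gene's own strand, and that start need not be the one used in MOLM-13 cells. Capitals mark TGANTCA, the AP-1 motif, or TATAAA, the TATA box, on either strand.
APOC1 (chr19:44914522-44914671, plus strand): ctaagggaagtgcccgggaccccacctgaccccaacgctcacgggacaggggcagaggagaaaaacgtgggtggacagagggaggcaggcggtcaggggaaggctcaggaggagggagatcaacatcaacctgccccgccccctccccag
APOE (chr19:44905646-44905795, plus strand): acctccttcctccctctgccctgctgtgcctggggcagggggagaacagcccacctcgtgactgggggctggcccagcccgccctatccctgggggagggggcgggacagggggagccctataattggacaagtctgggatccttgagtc
CD9 (chr12:6199796-6199945, plus strand): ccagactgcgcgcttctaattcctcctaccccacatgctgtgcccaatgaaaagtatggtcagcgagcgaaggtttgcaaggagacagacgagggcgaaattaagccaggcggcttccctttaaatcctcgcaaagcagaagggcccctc
CXCL8 (chr4:73740419-73740568, plus strand): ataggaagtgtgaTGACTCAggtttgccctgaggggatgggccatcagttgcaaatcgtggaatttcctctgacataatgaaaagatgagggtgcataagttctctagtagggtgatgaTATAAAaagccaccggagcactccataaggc
GPNMB (chr7:23246625-23246774, plus strand): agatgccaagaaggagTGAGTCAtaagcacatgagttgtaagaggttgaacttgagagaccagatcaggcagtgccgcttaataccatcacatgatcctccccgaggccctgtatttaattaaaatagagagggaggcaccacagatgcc
SGK1 (chr6:134318113-134318262, minus strand): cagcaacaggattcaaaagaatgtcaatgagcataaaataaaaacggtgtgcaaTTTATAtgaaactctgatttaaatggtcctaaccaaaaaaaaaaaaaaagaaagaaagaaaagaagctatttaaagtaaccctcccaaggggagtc

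In these windows the AP-1 motif begins 137 bases before the start of CXCL8 and 134 bases before that of GPNMB, and a TATA match begins 31 bases before the start of CXCL8 and 96 bases before that of SGK1, there on the other strand. The motif searches covered the 250 bases before the start, on both strands, in 14250 of the 17687 genes, 110 of them among the 152 called higher. AP-1 (TGANTCA) was found in 13 of the 110 (11.8%) and in 5.07% of all 14250. C/EBP (TTGCNNAA) was found in 9.09% of the 110 and 7.21% of all, PU.1 (GAGGAAGT) in 5.45% and 2.16%, and the TATA box in 12.7% and 8.99%. For the E-box CACGTG the shares were 5.45% and 7.70%, and for the antioxidant response element (TGACNNNGC, whose letters can overlap an AP-1 match) 9.09% and 11.8%. A match describes the letters of a window, with no statement on binding.

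Receptors that monocytes and macrophages use to sense microbes, lipids and debris were among the rises. Among 21 measured scavenger and lectin receptors, 6 rose and 0 fell, against 0.859% and 0.0848% of all genes, with a median difference of 0.16 against −0.03 over all genes. Apart from OLR1 these were CLEC7A, CD209, CLEC5A, CLEC12A and CD36. CLEC7A, the beta-glucan receptor Dectin-1, had 6.99 and 5.35 in treated cells, against 3.61 and 3.00 in control cells, a rise of at least 4.09-fold (fitted 2.87 ± 0.52, adjusted p 0.245, blocked 8.42e-05). CD209, the mannose-binding receptor DC-SIGN, had 6.74 and 6.32 in treated cells, against 4.44 and 4.21 in control cells (2.21 ± 0.33, adjusted p 0.112, blocked 0.000195). Its treated arrays were closer to each other than those of CLEC7A.

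CLEC5A, a lectin that signals through DAP12, rose by 1.92 ± 0.50, but its control arrays and its second treated array (3.98) lay under the background mark. Its change was 3.05 within replicate 1 and 0.79 within replicate 2, and the rise of the treated mean is at least 1.45-fold. The inhibitory lectin receptor CLEC12A rose by 1.23 ± 0.45, with 6.51 and 5.15 in treated cells, against 4.69 and 4.51 in control cells, and the difference was 0.55 and uncalled without the first treated array. CD36, a fatty acid and thrombospondin receptor, had 9.12 and 8.27 in treated cells, against 7.99 and 7.36 in control cells (1.02 ± 0.40, blocked adjusted p 0.0835), with the lower treated array close to the higher control array. Without the second control or the first treated array CD36 stood at 0.71 or 0.59, uncalled, while its change was 1.14 within replicate 1 and 0.90 within replicate 2. The mannose receptor MRC1 (−0.21) and the scavenger receptor MSR1 (0.06), both under the background mark on all 4 arrays, and the hemoglobin scavenger CD163 (0.15) were not called.

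Among 22 pattern and chemoattractant receptors 6 rose (27.3%, against 0.859% of all genes) and 0 fell, with a median of 0.01. CD14, the lipopolysaccharide co-receptor and monocyte marker, had 7.89 and 7.06 in treated cells, against 4.75 and 4.73 in control cells (2.74 ± 0.37, adjusted p 0.0718, blocked 8.29e-05). TLR4, which CD14 serves, had 7.58 and 7.10 in treated cells, against 6.18 and 5.86 in control cells (1.32 ± 0.34, blocked adjusted p 0.0157). FPR1, a receptor for bacterial formyl peptides, rose at least 3.05-fold and C5AR1, the receptor for complement C5a, at least 3.02-fold, both from control values under the background mark. The platelet-activating factor receptor PTAFR (1.07 ± 0.39) was near the threshold, and stood at 0.59 without the second control array and 0.99 without the first treated array, uncalled. FPR3 met the rule (1.02 ± 0.32) but was not above the background mark on any array, so no fold is given. TLR2 stood at −0.47 and LY96, the TLR4 co-receptor MD-2, at −0.29, both uncalled.

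FCER1G, the signaling chain shared by several Fc and lectin receptors, had 6.37 and 5.81 in treated cells, against 4.38 and 4.17 in control cells (1.81 ± 0.35, adjusted p 0.264, blocked 0.00119). FCGR2B, an inhibitory Fc receptor whose sequence is close to FCGR2A and FCGR2C, rose by 1.35 ± 0.35, was uncalled without the second control array (1.09), and its probe set may not separate it from them. These were the 2 called of 17 Fc receptors and leukocyte integrins (11.8%, against 0.859% of all genes). ITGAM, which encodes the integrin CD11b, had 7.22 and 7.53 in treated cells, against 6.55 and 7.09 in control cells, a difference of 0.55 ± 0.35 that was not called.

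Effector genes of monocytes and macrophages were the list with the most calls: 12 of 28 rose (42.9%, against 0.859% of all genes) and 0 fell. The median was 0.75, and in all 12 the blocked adjusted p was under 0.05. The list held GPNMB and APOC1 above. S100A8 and S100A9, the subunits of the calcium-binding protein calprotectin, rose by 3.14 ± 0.47 and 2.47 ± 0.34. S100A8 had 8.14 and 7.36 in treated cells, against 5.25 and 3.97 in control cells (adjusted p 0.112, blocked 1.19e-05), and S100A9 had 7.48 and 7.54 in treated cells, against 5.31 and 4.77 in control cells (adjusted p 0.0718, blocked 0.000123). The related S100A12 differed by 0.58 ± 0.33 and was not called.

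ANPEP, the aminopeptidase CD13, had 7.29 and 7.47 in treated cells, against 3.97 and 5.34 in control cells (2.73 ± 0.45, adjusted p 0.159, blocked 0.000189), and its control arrays lay far apart. MMP9, a matrix metalloproteinase, had 7.79 and 8.44 in treated cells, against 5.57 and 5.32 in control cells (2.67 ± 0.36, adjusted p 0.0692, blocked 0.000115). CYBB, the catalytic subunit of the phagocyte NADPH oxidase, had 10.2 and 9.16 in treated cells, against 7.46 and 7.27 in control cells (2.31 ± 0.40, adjusted p 0.198, blocked 0.000353). The other called members were APOE, SERPINA1, MNDA and LGALS3, at 1.24 to 1.95 log2, and SPP1, encoding osteopontin, whose control arrays lay under the background mark and whose rise is at least 1.82-fold.

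SLPI, a secreted inhibitor of neutrophil elastase, and SORL1, a sorting receptor, were among the 15 largest rises but in none of the lists. SLPI had 8.76 and 8.01 in treated cells, against 5.58 and 4.74 in control cells (3.23 ± 0.41, adjusted p 0.0648, blocked 1.06e-05). SORL1 had 8.59 and 8.13 in treated cells, against 6.06 and 5.69 in control cells (2.49 ± 0.34, adjusted p 0.0718, blocked 8e-05). In both genes replicate 2 was the lower array in treated and in control cells.

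Chemokine and cytokine genes gave both rises and the largest fall. Of 26, 4 rose (15.4%, against 0.859% of all genes) and 1 fell, with a median of 0.27. After CXCL8, the largest rise was that of IL1B, encoding interleukin-1 beta, with 7.32 and 6.81 in treated cells, against 4.62 and 4.25 in control cells (2.63 ± 0.35, adjusted p 0.0692, blocked 4.74e-05). CXCL16, a membrane-bound chemokine and scavenger receptor, rose by 1.52 ± 0.33 (blocked adjusted p 0.00591), and CSF1, the macrophage growth factor, by 1.28 ± 0.44 (blocked adjusted p 0.0201). CSF1 was under the background mark in control cells, so its rise is at least 1.73-fold, and it was uncalled at 0.77 without the first treated array and 0.89 without the second control array. CXCL10, an interferon-induced chemokine, fell: 4.55 and 2.87 in treated cells, against 5.50 and 4.67 in control cells (−1.38 ± 0.55, blocked adjusted p 0.0236). The change of CXCL10 was −0.96 within replicate 1 and −1.81 within replicate 2, where the treated value lay under the background mark. In unpaired fits it was −0.54 without the second treated array and −0.97 without the first control array, both uncalled. Among 28 interferon-stimulated genes 0 were called, and their median was 0.10. The largest in size among them was IFITM3, with 8.30 and 7.80 in treated cells, against 9.06 and 8.82 in control cells (−0.89 ± 0.34), which missed the threshold on size.

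Some genes for carrying and storing lipid rose, and genes for making sterols were mostly below 0 without passing the test. Of 16 cholesterol export and lipid storage genes 4 rose (25.0%, against 0.859% of all genes) and 0 fell, with a median of 0.58. These were APOC1, APOE, CD36 and PLIN2. APOE, the apolipoprotein that macrophages secrete with cholesterol, had 7.70 and 7.82 in treated cells, against 5.80 and 5.82 in control cells (1.95 ± 0.32, adjusted p 0.147, blocked 0.00054). PLIN2, a coat protein of lipid droplets, had 7.64 and 7.34 in treated cells, against 6.09 and 5.73 in control cells (1.58 ± 0.33, adjusted p 0.442, blocked 0.00349). The nuclear receptor PPARG had 6.28 and 6.13 in treated cells, against 5.42 and 5.30 in control cells (0.84 ± 0.32), below the threshold on size, and the transporters ABCA1 (0.45) and ABCG1 (−0.16) were not called.

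Of 25 cholesterol and fatty acid synthesis genes 1 fell and 0 rose, and 24 had a difference below 0, with a median of −0.48 against −0.03 over all genes. The share above 0 was 4.0%, against 46.1% of all genes. In 11 (44.0%) both treated arrays lay below both control arrays, against 11.7% of all genes. MSMO1, a methylsterol oxidase, had 9.37 and 7.81 in treated cells, against 10.12 and 9.76 in control cells (−1.35 ± 0.49, blocked adjusted p 0.0502). Without the second treated array its difference was −0.57 and not called. DHCR7, the last enzyme of cholesterol synthesis, had 8.97 and 7.88 in treated cells, against 9.48 and 9.18 in control cells (−0.90 ± 0.41, not called). The list median was −0.30 within replicate 1 and −0.50 within replicate 2, and without the first treated array 5 members were called lower.

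HMOX1 led the list of heme oxygenase and NRF2 targets. Of 15, 4 rose (26.7%, against 0.859% of all genes) and 0 fell (median 0.36). ME1, the NADPH-making malic enzyme, rose by 1.38 ± 0.33, at least 2.38-fold over the background mark. NQO1, a quinone reductase, rose by 1.06 ± 0.42 and SLC7A11, the cystine importer, by 1.03 ± 0.45, and neither was called without the first treated array (0.79 and 0.37) or the second control array (0.53 and 0.87). The glutathione synthesis genes GCLC (0.38) and GCLM (−0.09) were not called.

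Immediate early genes, which cells transcribe first after a signal, gave 4 rises and 0 falls among 20, with a median of 0.49. The share called higher was 20.0%, against 0.859% of all genes. Beside SGK1 the called genes were JUN, IER3 and EGR1. IER3 had 9.54 and 9.69 in treated cells, against 8.01 and 8.15 in control cells (1.54 ± 0.32, blocked adjusted p 0.00408). JUN, a subunit of AP-1, had 4.79 and 4.75 in treated cells, against 3.08 and 3.31 in control cells, a rise of at least 1.55-fold (1.58 ± 0.32, blocked adjusted p 0.00383), and its partner FOS differed by 0.89 ± 0.37 without being called. EGR1, a zinc finger factor of monocyte maturation, rose by 1.37 ± 0.41, but by 0.84 and uncalled without the first control array. PHLDA1 (1.54 ± 0.35) and the phosphatase gene DUSP1 (1.26 ± 0.38) rose among 14 MAPK feedback genes (14.3%, against 0.859% of all genes). DUSP1 was uncalled without the second control array (1.03) or the first treated array (0.87), and DUSP6, a common readout of ERK signaling, differed by 0.55 and was not called. EGR1 was also the 1 called of 20 myeloid transcription factors (5.0%, against 0.859% of all genes), where SPI1, encoding PU.1, differed by 0.18 and CEBPB by 0.70.

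Lysosomal genes showed a small, broad difference: 2 of 35 were called (5.71%, against 0.859% of all genes called higher), and the median was 0.25. In 15 (42.9%) both treated arrays lay above both control arrays, against 12.1% of all genes. CTSD, encoding cathepsin D, had 10.7 and 10.86 in treated cells, against 9.28 and 9.80 in control cells (1.24 ± 0.34, blocked adjusted p 0.0263; 0.98 without the first control array), and IDS, an enzyme that trims heparan sulfate, rose by 1.15 ± 0.33 (blocked adjusted p 0.0410). IDS was uncalled without the second control array (1.11) or the first treated array (0.94). Of 11 MHC class II genes only HLA-DRA was called (9.09%, against 0.859% of all genes called higher). It had 8.03 and 7.35 in treated cells, against 6.95 and 6.41 in control cells (1.01 ± 0.38, blocked adjusted p 0.0837). Among 18 costimulatory and SLAM family genes, the T cell ligand CD86 (1.08 ± 0.34) and the adhesion molecule CD48 (1.05 ± 0.40) rose (11.1%, against 0.859% of all genes). CD84 differed by −0.03 ± 0.37. The calls of HLA-DRA, CD86 and CD48 were each lost in the unpaired fit without the first treated array, at 0.67, 0.87 and 0.57. They were also lost without the second control array, at 0.74, 0.92 and 0.85. Within replicates 1 and 2 the changes were 1.08 and 0.95 for HLA-DRA, 1.13 and 1.03 for CD86, and 1.33 and 0.77 for CD48. Among 17 granule proteins 0 were called, with MPO, the myeloperoxidase of early myeloid cells, highest at 0.94 ± 0.32.

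**Figure D3:**
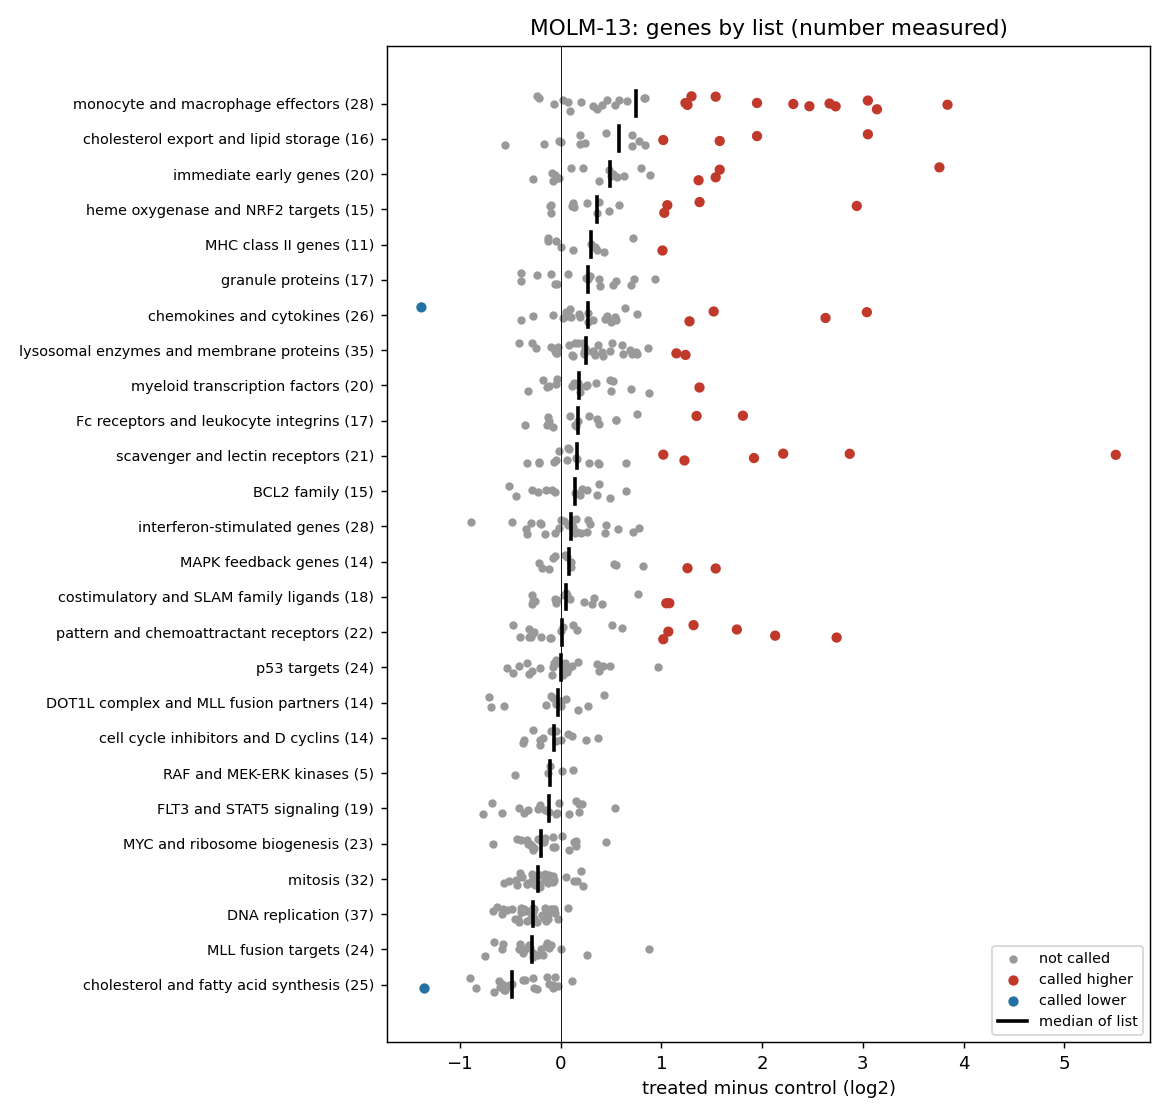
Treated minus control difference (log2) of each measured gene in 26 lists, ordered by list median (black bar), with called genes in red (higher) or blue (lower) and the number measured in parentheses. The monocyte and macrophage effectors have the highest median, 0.75, and cholesterol and fatty acid synthesis the lowest, −0.48.

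The falls beyond CXCL10 and MSMO1 were small and shared no list. NR1D1, the circadian repressor REV-ERB alpha, had 5.92 and 5.35 in treated cells, against 6.60 and 7.00 in control cells (−1.17 ± 0.35, blocked adjusted p 0.0839). RUBCNL, an autophagy factor, had 7.00 and 5.57 in treated cells, against 7.67 and 7.22 in control cells (−1.16 ± 0.48), and PSMG1, a proteasome assembly chaperone, had 6.93 and 5.49 in treated cells, against 7.33 and 7.22 in control cells (−1.06 ± 0.47). Without the second treated array RUBCNL stood at −0.44, PSMG1 at −0.34 and NR1D1 at −0.88, all uncalled, and each call was also lost without at least 1 control array. F8 (−1.29 ± 0.37), LRIT3 (−1.19 ± 0.38), GPX8 (−1.08 ± 0.33), DEPDC4 (−1.03 ± 0.40) and NDNF (−1.03 ± 0.44) had treated values of 3.93 or less, under the background mark. GPX8 was not above it on any array, and each of these calls was lost when at least 1 array was left out.

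Classical MLL fusion targets were lower on average without any call. Of 24 measured, 0 were called, 3 had a difference above 0 (12.5%, against 46.1% of all genes), and the median was −0.28. In 9 (37.5%) both treated arrays lay below both control arrays, against 11.7% of all genes. MEIS1, a homeobox cofactor, had 7.45 and 6.93 in treated cells, against 8.24 and 7.64 in control cells (−0.75 ± 0.37, unadjusted limma p 0.0706), and both treated values lay below both control values. FLT3, the receptor tyrosine kinase, had 9.31 and 9.10 in treated cells, against 9.67 and 9.56 in control cells (−0.41 ± 0.32), again without overlap. After MEIS1, the lowest were EYA1 (−0.66), SOCS2 (−0.58) and PBX3 (−0.57), and CCNA1, a germ line and myeloid cyclin, was the highest at 0.88 ± 0.34. IGF2BP2, an RNA-binding protein, had 8.63 and 8.00 in treated cells, against 8.62 and 8.62 in control cells (−0.31 ± 0.35), so that 1 treated array matched the controls. DOT1L itself differed by 0.17 ± 0.34 and no member of its complexes was called among 14, the lowest being the MLL partner menin, MEN1, at −0.71 ± 0.32.

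Of the genes given more H3K79me2 in MLL-r than in other lines by the study's supplementary table, 123 of 145 were measured. Of these 1 rose (0.813%, against 0.859% of all genes), 0 fell and 40 had a difference above 0 (32.5%, against 46.1%), with a median of −0.14. Without the first treated array 5 were called lower. The called gene was CYP1B1, a cytochrome P450, with 9.59 and 9.61 in treated cells, against 8.02 and 8.36 in control cells (1.41 ± 0.32, adjusted p 0.615, blocked 0.0103). The lowest was MEIS1. That list rests on cells of the same lines, MOLM-13 among them.

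Growth genes were not called in MOLM-13, with or without the replicate number as a block. Among 37 DNA replication genes 0 were called and 1 was above 0 (2.7%, against 46.1% of all genes), with a median of −0.27. In 10 (27.0%) both treated arrays lay below both control arrays, against 11.7% of all genes. Without the first treated array some DNA replication, mitosis and MYC and ribosome biogenesis genes were called lower. That unpaired fit sets the second treated array against both control arrays. For DNA replication genes the second control array was the lower control array, with a mean of 8.04 against 8.30. PRIM1, the primase subunit, was the lowest replication gene at −0.67 ± 0.42. Among 32 mitosis genes 0 were called and the median was −0.23, but the arrays did not agree: it was −0.05 within replicate 1 and −0.40 within replicate 2, and the mean level was 8.40 and 7.71 in treated and 8.45 and 8.05 in control cells. PBK, a mitotic kinase, had 7.42 and 6.08 in treated cells, against 7.46 and 6.69 in control cells (−0.32 ± 0.48). MYC had 10.49 and 10.60 in treated cells, against 10.78 and 10.95 in control cells (−0.32 ± 0.32), and CDK6 9.11 and 8.89 in treated cells, against 9.30 and 9.24 in control cells (−0.27 ± 0.32). STAT5A differed by −0.03 ± 0.33.

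No gene was called among 19 FLT3 and STAT5 signaling genes, whose lowest members were the STAT5 targets CISH (−0.77 ± 0.32) and PIM2 (−0.68 ± 0.34). In 8 of the 19 (42.1%) both treated arrays lay below both control arrays, against 11.7% of all genes. In CISH the treated values of 7.97 and 8.06 lay below the control values of 8.65 and 8.92. Among 24 p53 targets the median was 0.00, with TP53I3 highest at 0.97 ± 0.34 and the cell cycle inhibitor CDKN1A at 0.07, and among 15 BCL2 family genes it was 0.14, with BCL2A1 highest at 0.65 ± 0.44. None of these, nor of 14 cell cycle inhibitors and D cyclins, 23 MYC and ribosome biogenesis genes or 5 RAF and MEK-ERK kinases, was called. With 2 arrays a side the precision is limited by their number, and a small difference in these genes may not have been detectable.

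Some called genes lie side by side in the RefSeq annotation, a description made after their values were seen. On chromosome 19, APOE and APOC1 rose while TOMM40 on one side differed by −0.07 and APOC4 on the other by −0.04, and APOC2 beyond it by 0.57 with both treated arrays (10.80 and 10.91) above both control arrays (10.26 and 10.31). On chromosome 12, CLEC7A and OLR1 are next to each other, and CLEC12A in the same lectin cluster rose too, whereas CLEC1A, CLEC1B and CLEC9A between them differed by −0.11, 0.22 and −0.01. CLEC9A and CLEC1B lay near or under the background mark throughout. HP and its near-copy HPR (1.71 and 1.29) also neighbor each other, and their probe sets may share signal.

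Many MOLM-13 rises were also called in other lines, with and without MLL-r, of whose own calls they were a minor share. Of the 152, NOMO-1 shared 98 (64.5%, or 11.7% of its own 841 rises, with 4.75% of all genes called), MV4-11 72 (47.4%, or 17.1% of its 422, with 2.39% called) and THP-1 64 (42.1%, or 21.0% of its 305, with 1.72% called). OCI-AML3 shared 43 (28.3%, or 12.8% of its 336, with 1.90% called), U-937 15 (9.87%, or 28.3% of its 53, with 0.300% called) and HL-60 3 (1.97%, or 6.52% of its 46, with 0.260% called). The median change of the 152 genes was 1.48 in NOMO-1, 0.94 in MV4-11, 0.78 in THP-1, 0.38 in OCI-AML3, 0.14 in U-937 and 0.06 in HL-60. The number called in none of the other 6 lines was 22, among them APOC1, APOE, CYP17A1 and the growth factor HBEGF. Of the 15 falls, NOMO-1 shared 3 (with 3.12% of all genes called lower), OCI-AML3 3 (0.537%), THP-1 2 (0.718%), MV4-11 1 (1.52%), and U-937 (0.113%) and HL-60 (0.175%) 0.

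The response of MOLM-13 exceeded the mean response of the other 6 lines in 9 genes at an adjusted p under 0.05 (0.0509% of 17687; limma on all 28 arrays), and was below it in 0, out of 526 at an unadjusted p under 0.05 (2.97%). With the block these counts were 26 (0.147%) and 10 (0.0565%). OLR1 led, with a difference between responses of 4.10 ± 0.46 log2 (adjusted p 0.00031). Its change was 5.51 in MOLM-13, 4.53 in NOMO-1, 1.63 in THP-1 and 1.17 in MV4-11. GPNMB followed (3.03 ± 0.46, adjusted p 0.00559), with 3.84 in MOLM-13, 2.33 in NOMO-1, 1.54 in THP-1 and −0.03 in MV4-11.

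The apolipoproteins and CYP17A1, the steroid hydroxylase and lyase, were called higher in none of the other 6 lines. APOC1 exceeded the others by 3.01 ± 0.45 (adjusted p 0.0049), with a change of 3.05 in MOLM-13, against 0.51 in THP-1, 0.45 in NOMO-1 and −0.10 in MV4-11. For APOE the excess was 1.74 ± 0.23 (adjusted p 0.00188), with 1.95 in MOLM-13, against 0.56, 0.53 and 0.07 in NOMO-1, THP-1 and MV4-11. APOE stood at 8.24 and 8.29 in treated THP-1 cells, against 7.62 and 7.86 in THP-1 control cells, so that the THP-1 controls were near the level of treated MOLM-13 cells. CYP17A1 had 6.51 and 5.21 in treated MOLM-13 cells, against 3.61 and 3.73 in control cells, at least 3.29-fold, and its change in the other MLL-r lines was between −0.22 and 0.06 (excess 2.25 ± 0.35, adjusted p 0.00609).

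SGK1 (excess 2.30 ± 0.32, adjusted p 0.00269), HMOX1 (2.21 ± 0.33, adjusted p 0.0049), IL1B (2.14 ± 0.35, adjusted p 0.0119) and MCEMP1, a mast cell and myeloid membrane protein (1.59 ± 0.29, adjusted p 0.0364), made up the rest. SGK1 was also called higher in NOMO-1 (3.00), THP-1 (2.16), OCI-AML3 (1.36), MV4-11 (1.23) and U-937 (1.16), and HMOX1 in NOMO-1 (2.63) and OCI-AML3 (1.05). IL1B was called higher in NOMO-1 (2.12), THP-1 (1.24) and MV4-11 (1.01) and lower in OCI-AML3 (−1.39), which lowers the mean it is set against. MCEMP1 was called higher in MV4-11 (1.99). Leaving out single MOLM-13 arrays left between 2 and 11 genes past this threshold: 3 and 4 without the first and second control array, 2 without the first treated array and 11 without the second. OLR1 and APOE passed in each of those fits. APOC1, CYP17A1, IL1B and MCEMP1 passed only without the second treated array. GPNMB and HMOX1 missed the threshold without the first control or first treated array. SGK1 missed it without the second control or first treated array. The excess was 1.60 for CYP17A1 without the first treated array and 2.56 for GPNMB without the first control array.

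**Figure D4:**
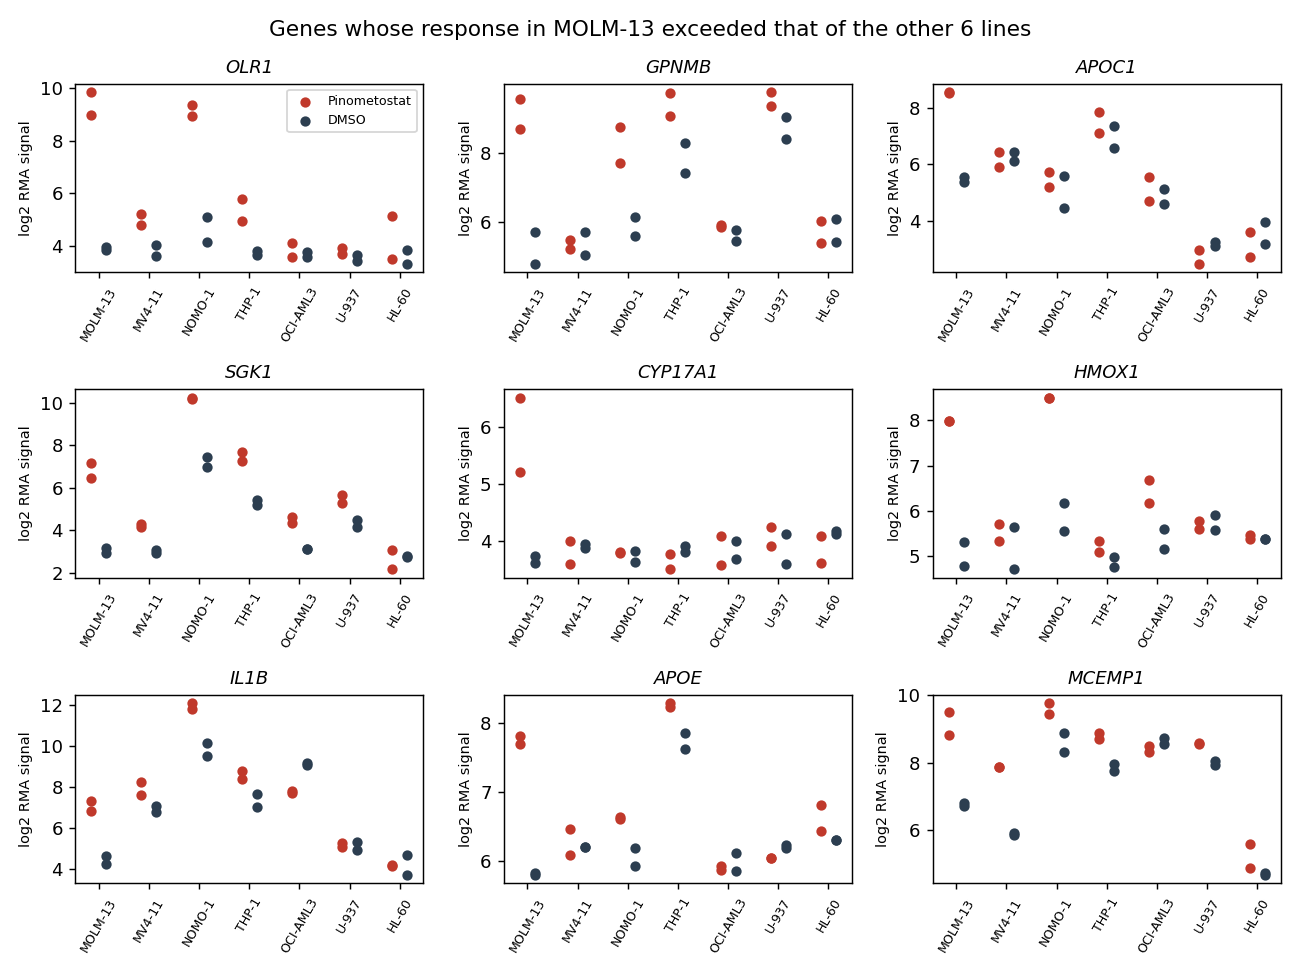
Log2 RMA signal of the 9 genes whose response in MOLM-13 exceeded the mean response of the other 6 lines, 1 point per array, Pinometostat (red) left of DMSO (dark) in each line. The gap between red and dark points is wide in MOLM-13 for all 9 genes, and also wide in NOMO-1 for OLR1, SGK1, HMOX1, GPNMB and IL1B. In THP-1 the widest gap is that of SGK1 (2.16). In the other lines the gap is narrow for CYP17A1. For APOC1 the points of NOMO-1 and THP-1 are scattered, with mean changes of 0.45 and 0.51.

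Against MV4-11, the other line with MLL-r and a FLT3 internal tandem duplication, 16 genes were higher and 32 lower in response (adjusted p under 0.05; 0.0905% and 0.181%), and 82 (0.464%) and 119 (0.673%) with the block. MHC class II genes were among those lower. In MOLM-13 1 of 11 was called higher, where 0.859% of all genes were, with a median of 0.30. In MV4-11 9 of 11 were called higher, where 2.39% of all genes were, with a median of 2.11. HLA-DPA1 had 4.79 and 4.55 in treated MOLM-13 cells, against 4.77 and 3.90 in control cells, a difference of 0.34, against 3.23 in MV4-11 (−2.90 ± 0.55, adjusted p 0.0196). HLA-DPB1 (−2.75 ± 0.45, adjusted p 0.00432), HLA-DQA1 (−2.66 ± 0.42, adjusted p 0.00319) and HLA-DQB1 (−2.19 ± 0.46, adjusted p 0.0429) differed in the same way. HLA-DPB1 and HLA-DQA1 passed with any 1 MOLM-13 array left out, whereas HLA-DPA1 (−2.46 to −3.33) and HLA-DQB1 (−1.80 to −2.57) passed only without the second control array.

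The lowest responses relative to MV4-11 were those of the adhesion molecule NCAM2 (−4.18 ± 0.58), the neurturin receptor GFRA2 (−3.92 ± 0.51), GASK1B (−3.56 ± 0.58), the growth factor IGF1 (−3.50 ± 0.43) and the phosphodiesterase PDE4B (−3.40 ± 0.66), with adjusted p between 0.000785 and 0.0252. IGF1 had 6.14 and 6.24 in treated MOLM-13 cells, against 6.16 and 6.14 in control cells, while it changed by 3.54 in MV4-11. The highest were OLR1 (4.34), GPNMB (3.87), APOC1 (3.16), CD52 (3.16 ± 0.47) and RHBDL3 (2.73 ± 0.47). APOC1 missed the threshold without any 1 of the 4 MOLM-13 arrays (3.08 to 3.24), RHBDL3 without the first control array (2.56), and PDE4B without either control array (−3.63 and −3.16) or the second treated array (−3.11). CD52, a lymphocyte and monocyte surface glycoprotein, rose by 1.25 ± 0.32 in MOLM-13, with 9.26 and 9.40 in treated cells, against 8.05 and 8.11 in control cells, while its change was −1.90 in MV4-11. The growth lists also parted in their counts, a difference not tested as lists: 0 DNA replication and 0 mitosis genes were called lower in MOLM-13, against 11 and 13 in MV4-11, where 1.52% of all genes were called lower. With the replicate number as a block both MOLM-13 counts were also 0, while the unpaired fit without the first treated array called some members lower. GASK1B and PDE4B lay under the background mark on all 4 MOLM-13 arrays.

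Against the mean of NOMO-1 and THP-1, the other MLL-AF9 lines, 22 genes were higher and 36 lower in response (0.124% and 0.204%), and 108 (0.611%) and 220 (1.24%) with the block. SOCS2, a STAT5-induced inhibitor of cytokine signaling, was highest at 3.49 ± 0.32 (adjusted p 5.03e-06). It had a mean of 9.48 ± 0.09 in treated MOLM-13 cells, against 10.06 ± 0.08 in control cells (SD, n = 2 each), and changed by −0.58, against −3.61 in NOMO-1 and −4.54 in THP-1. ZNF521, a progenitor zinc finger gene (3.06 ± 0.45, adjusted p 0.00167), the protease inhibitor TIMP3 (2.51 ± 0.30, adjusted p 0.000118) and IGF2BP2 (2.20 ± 0.32, adjusted p 0.00155) showed the same pattern. They differed by −0.17, 0.10 and −0.31 in MOLM-13, against −2.65, −1.75 and −2.76 in NOMO-1 and −3.81, −3.07 and −2.26 in THP-1.

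Among the lowest responses in that comparison, the alpha-defensin genes DEFA1, DEFA1B and DEFA3, whose copies are nearly identical and may share probe signal, were lower by −4.30, −4.30 and −4.31. DEFA3 had 4.19 and 4.39 in treated MOLM-13 cells, against 4.11 and 3.45 in control cells, around the background mark. TNFAIP6, a hyaluronan-binding protein (−4.33 ± 0.64, adjusted p 0.00169), and the glycerol channel AQP9 (−3.34 ± 0.44, adjusted p 0.000463) lay under the background mark on all 4 MOLM-13 arrays. APOC1 (2.57 ± 0.51, adjusted p 0.0295) and OLR1 (2.43 ± 0.53, adjusted p 0.0464) also passed, but APOC1 missed the threshold without any 1 of the 4 MOLM-13 arrays (2.49 to 2.65) and OLR1 in 3 of the 4 fits, at 2.51, 2.35 and 2.00 without the first control, second control and first treated array.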

How the data were processed

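RNA was measured on Clariom S arrays. The authors deposited log2 RMA values, background-corrected and normalized over all 28 arrays, and R 3.6.1 is named in the submitters' processing notes. The table held 21448 transcript probe sets beside 5741 control rows. Of these, 17709 had 1 symbol in the platform annotation and 3739 had none, and where a gene had several (20 genes) their mean was taken, leaving 17687 genes. RMA draws each array to a shared distribution, so a change of total RNA per cell would not be seen.

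Treated minus control was fitted on the 4 MOLM-13 arrays by the moderated linear models of limma 3.58.1 under R 4.3.3, with Benjamini-Hochberg adjustment over all genes. These models draw the spread of each gene towards that of all genes. CCND2, with an SD of 0.01 in treated and in control cells, had an SE of 0.31. The blocked fit leaves less of each gene's own spread to estimate from. A call needed an unadjusted p under 0.05 and a difference of at least 1 log2. The study describes its analysis as paired, and whether its per-line fits held a pairing term was not settled here. It used the same p cutoff with a fold cutoff whose scale it does not give and which is read here as log2. The fit that gives the calls here is unpaired. Responses of lines were compared by contrasts of 14 line-by-condition means over all 28 arrays. Same-numbered treated and control arrays deviated together from their group means in all 7 lines (r 0.421 to 0.635 across genes, 0.624 in MOLM-13), so the replicate number was read as a pairing and a fit with it as a block is given beside the results. The scripts were tested on simulated data. The number of arrays limits the precision, and differences between probe sets of different genes were not compared.

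Named genes were the 15 largest rises and 10 largest falls among called genes without overlap, called list members, genes the study discusses, the extreme genes of each line comparison, and the leading members of lists with no call. MCEMP1, HBEGF, the MHC class II genes set against MV4-11, and genes named as uncalled members or neighbors beyond these were picked after their values were seen. The members and lists were chosen with earlier results of these data known. Alternatives were the block, a fit over all 28 arrays, a trend in the variance, a low-signal filter at 5 log2, median centering, renewed quantile normalization, all probe sets and leaving out each array. Tables were handled with Python 3.11.15, pandas 2.3.3 and numpy 2.4.6, and plots drawn with matplotlib 3.10.9.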

Additional observations from a re-analysis of the deposited data

Results flagged for a closer look

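The response of MOLM-13 differed from that of other lines in a tested difference (limma over 28 arrays, adjusted p under 0.05) for the genes given here, each as a log2 difference between responses. Against the mean of the other 6 lines it was 4.10 for OLR1, 3.03 for GPNMB, 3.01 for APOC1, 2.30 for SGK1, 2.25 for CYP17A1, 2.21 for HMOX1, 2.14 for IL1B, 1.74 for APOE and 1.59 for MCEMP1.

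Against MV4-11 it was 4.34 for OLR1, 3.87 for GPNMB, 3.16 for APOC1, 3.16 for CD52 and 2.73 for RHBDL3. It was −4.18 for NCAM2, −3.92 for GFRA2, −3.56 for GASK1B, −3.50 for IGF1, −3.40 for PDE4B, −2.90 for HLA-DPA1, −2.75 for HLA-DPB1, −2.66 for HLA-DQA1 and −2.19 for HLA-DQB1.

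Against NOMO-1 and THP-1 it was 3.49 for SOCS2, 3.06 for ZNF521, 2.57 for APOC1, 2.51 for TIMP3, 2.43 for OLR1 and 2.20 for IGF2BP2. APOC1 missed the threshold without any 1 of the 4 MOLM-13 arrays, here and against MV4-11, and OLR1 in 3 of the 4 such fits here. It was −4.33 for TNFAIP6, −4.31 for DEFA3, −4.30 for DEFA1B, −4.30 for DEFA1 and −3.34 for AQP9. The 3 defensin genes are near-identical copies and their responses in NOMO-1 (8.11 to 8.13) and THP-1 (1.55 to 1.57) are far apart, so the mean of those lines stands for neither.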

How the results depend on the processing

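All 152 called rises stayed called with the replicate block, over all 28 arrays with and without it, and with a variance trend, against 140 after median centering, 134 after renewed quantile normalization, 100 of the 102 left by the low-signal filter, and 101 to 138 when 1 array was left out. With the pairing as a block the called falls numbered 23 (also over 28 arrays), and genes at an adjusted p under 0.05 numbered 105 higher and 1 lower in MOLM-13, 26 and 10 against the other 6 lines, 82 and 119 against MV4-11, and 108 and 220 against NOMO-1 and THP-1. Over 28 arrays 50 were higher, and 122 higher and 10 lower with the block. The filter gave 100 called rises, 6 called falls, 3 genes higher after adjustment, 20 lower against MV4-11, 10 lower against NOMO-1 and THP-1, and 1 list member called lower in place of 2. Renewed quantile normalization gave 1 gene higher after adjustment and 1 list member called lower. The cause of these shifts was not tested.

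Leaving out 1 array gave 133 to 349 called rises, 31 to 694 called falls, 20 to 87 genes higher and 0 to 108 lower after adjustment, 34 to 51 list members called higher and 0 to 21 lower. The line comparisons gave 2 to 11 higher and 0 to 0 lower against the other 6 lines, 8 to 13 and 16 to 24 against MV4-11, and 6 to 14 and 14 to 23 against NOMO-1 and THP-1. Some differences changed sign, among them ones away from 0 in the reported fit, such as NCAM2 (−0.67) and NUF2 (−0.56). With renewed quantile normalization STAT5A was 0.06 and CD84 0.03. With 1 array left out the ranges were −1.38 to 0.27 for NUF2, −1.12 to 0.11 for KIF20A, −1.09 to 0.22 for POLR1A, −0.06 to 0.80 for CDKN2D, −0.63 to 0.01 for IGF2BP2, −0.99 to 0.35 for PBK, −0.19 to 0.13 for STAT5A, −0.37 to 0.30 for CD84, −0.11 to 0.46 for DOT1L, −1.44 to 0.09 for NCAM2, −0.01 to 0.09 for IGF1, −0.02 to 0.33 for RHBDL3, −0.49 to 0.15 for ZNF521 and −0.01 to 0.21 for TIMP3. A side with 1 array left was assumed to vary like the other side, and these fits did not hold the replicate number.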
